A study of Mus musculus with 24 samples.

Results

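The genes described here encode 10 contractile protein isoforms that separate fast from slow skeletal muscle fibres. They were listed by symbol, with no threshold on their values, and all 10 were found among the 24532 genes of the deposited table. The fast isoforms were *Myh1*, *Myh2*, *Myh4*, *Tnnt3* and *Tnni2*, and the slow isoforms were *Myh7*, *Tnnt1*, *Tnni1*, *Myl2* and *Myl3*. The values come from bulk RNA-seq of liver, inguinal white adipose tissue (iWAT), gastrocnemius muscle (GM) and hypothalamus, with 3 Ctrl and 3 LKO libraries for each of the 4 tissues, 24 in all. Both genotypes were chow-fed C57BL/6 mice of 8 weeks. Ctrl mice carried the floxed *Crif1* alleles alone (Crif1flox/flox), and LKO mice carried the same alleles with Alb-Cre. The albumin promoter drives Cre in hepatocytes, so that neither GM nor iWAT was itself a target of the deletion. *Crif1* encodes a protein needed for translation on the mitochondrial ribosome, and the study asked how its loss in the liver acts on other metabolic tissues. The labels do not say that the 3 libraries of a group came from separate mice, so the p-values measure the spread between these libraries, which may be technical.

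Force in a muscle fibre comes from myosin, a motor whose heavy chain isoform sets the speed of contraction, and from the troponin complex, which lets calcium switch the thin filament on. Fast fibres build these parts from other genes than slow fibres, which use oxidative metabolism and resist fatigue. The mouse gastrocnemius is a mixed muscle in which fast glycolytic fibres prevail. In bulk RNA, a change in the number of fibres of a type and a change in RNA per fibre cannot be told apart.

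The targeted gene, listed as *Gadd45gip1*, was measured in FPKM, a count of fragments set against transcript length and library size. In liver it stood at 14.6, 12.5 and 13.6 FPKM in the Ctrl and at 5.40, 2.002 and 2.51 FPKM in the LKO libraries. In GM it had 15.9, 13.5 and 12.9 FPKM in Ctrl and 13.2, 12.7 and 17.4 FPKM in LKO, with overlapping groups. The genotypes were thus apart in liver and not in GM. The tissue labels were checked against defining markers. *Acta1*, the skeletal actin, ran from 23443 to 28054 FPKM in GM. *Adipoq*, an adipocyte hormone, ran from 2784 to 3036 FPKM in iWAT and from 6.53 to 48.1 FPKM in GM.

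The 3 fast heavy chain genes lie side by side on chromosome 11 of mm10, *Myh2* at chr11:67171027-67197517, *Myh1* at chr11:67200114-67224575 and *Myh4* at chr11:67237812-67260447, all on the plus strand. The slow heavy chain *Myh7* lies at chr14:54970688-54994549 on the minus strand. The 150 bases before the RefSeq start of each are shown, which for *Myh1* lies a few bases upstream of the start in the deposited table, because the same cluster holds the heavy chain that prevailed in GM and neighbours at a small part of its level. They come from RefSeq on GRCm38.p6, which held promoters for 8 of the 10 genes, and are written from 5′ to 3′ on the strand of the gene. Capitals mark matches, on either strand, to the E-box CANNTG, the TATA box TATAAA, the MCAT element CATTCC and the CArG box.

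*Myh4*, chr11:67237662-67237811: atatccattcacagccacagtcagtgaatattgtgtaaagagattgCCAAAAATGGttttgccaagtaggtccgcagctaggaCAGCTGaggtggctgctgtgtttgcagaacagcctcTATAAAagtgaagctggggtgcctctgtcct

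*Myh1*, chr11:67199952-67200101: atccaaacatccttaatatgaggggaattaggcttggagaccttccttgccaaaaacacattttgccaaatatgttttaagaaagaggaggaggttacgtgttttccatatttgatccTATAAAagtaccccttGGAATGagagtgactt

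*Myh2*, chr11:67170877-67171026: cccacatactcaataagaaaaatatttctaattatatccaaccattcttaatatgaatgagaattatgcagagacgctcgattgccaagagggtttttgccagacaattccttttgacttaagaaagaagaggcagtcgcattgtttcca

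*Myh7*, chr14:54994550-54994699, minus strand: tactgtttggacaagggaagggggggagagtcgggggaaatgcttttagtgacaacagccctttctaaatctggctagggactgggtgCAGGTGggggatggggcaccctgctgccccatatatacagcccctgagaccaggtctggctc

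The *Myh4* window held 1 E-box, 1 TATA box and 1 CArG box, and the *Myh1* window 1 TATA box and 1 MCAT element. The *Myh7* window held 1 E-box, and the *Myh2* window none of these letters. Among all 32851 promoter windows of this length, 47.66% held an E-box, 7.574% TATAAA, 7.592% an MCAT element and 0.9163% a CArG box. These matches describe the letters only. The MEF2 motif, found in 1.665% of all windows, matched none of the 4.

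In GM the fast isoforms of troponin and the *Myh4* heavy chain stood far above the other members. Over the 6 GM libraries *Tnnt3*, the fast troponin T that ties troponin to tropomyosin, had 20554 ± 1191 FPKM (SD, n = 6). The next were *Tnni2*, the fast inhibitory troponin, with 12388 ± 813 FPKM and *Myh4*, the type IIB heavy chain of the fastest fibres, with 11074 ± 547 FPKM. The ranges of *Tnni2* and *Myh4* overlapped, although *Tnni2* was the higher in all 6 libraries. The slow regulatory light chain *Myl2* followed with 812 ± 149 FPKM, the type IIX heavy chain *Myh1* with 769 ± 66.0 FPKM and the slow essential light chain *Myl3* with 750 ± 44.9 FPKM. The type IIA heavy chain *Myh2* had 665 ± 54.0 FPKM. These 4 neighbours did not differ beyond their ranges. The lowest were the slow troponin T *Tnnt1* with 388 ± 46.1 FPKM, the slow heavy chain *Myh7* with 387 ± 49.3 FPKM and the slow troponin I *Tnni1* with 266 ± 41.4 FPKM. The ranges of neighbours were separate only between *Tnnt3* and *Tnni2*, *Myh4* and *Myl2*, *Myh2* and *Tnnt1*, and *Myh7* and *Tnni1*. The 10 genes together made up 9.09% to 10.05% of the summed FPKM of a GM library, and the slow isoforms 4.56% to 6.28% of the members' sum.

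**Figure D1:**
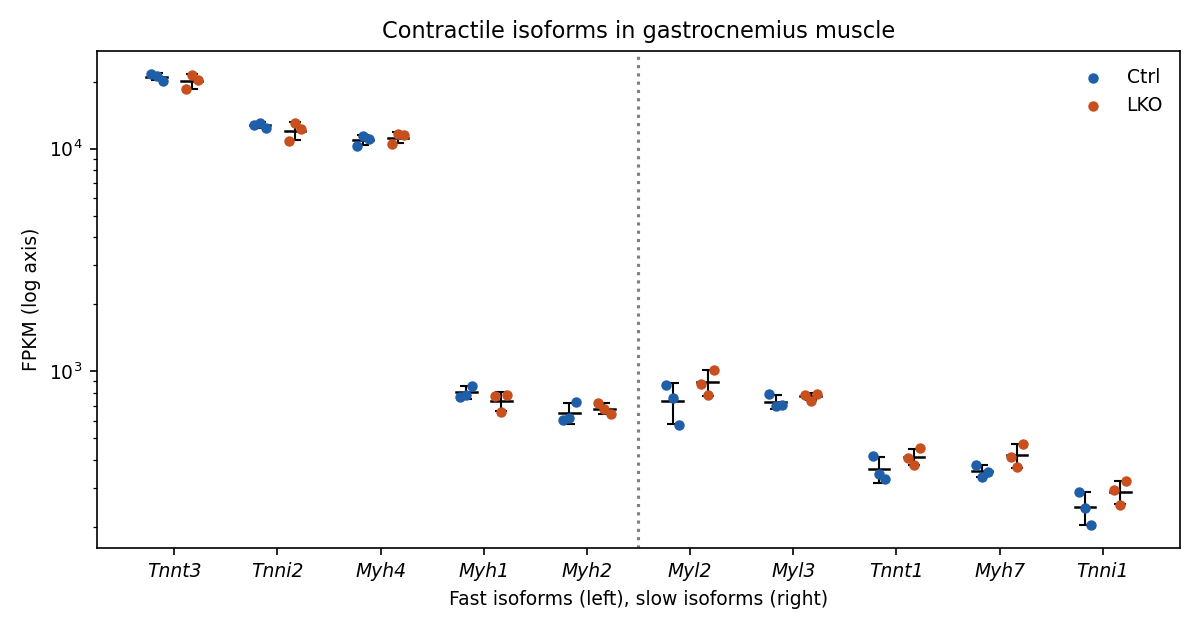
FPKM (log axis) of the 10 contractile isoforms in the 3 Ctrl and 3 LKO libraries of GM, fast isoforms on the left and slow isoforms on the right; points are libraries, bars the mean and SD of a group. *Tnnt3*, *Tnni2* and *Myh4* lie far above the other 7, which run from 205 to 1016 FPKM, and the Ctrl and LKO points overlap for every gene.

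Among the fast heavy chains, *Myh4* had 10325, 11430 and 11055 FPKM in the Ctrl GM libraries and 10511, 11658 and 11465 FPKM in the LKO libraries. Its log2 fold change, LKO against Ctrl on log2(FPKM + 1), was 0.04 ± 0.073 (SE; limma adjusted p = 0.965). The groups overlapped, with Ctrl 1 the lowest library and LKO 2 the highest. *Myh1* had 769, 778 and 861 FPKM in Ctrl and 770, 655 and 783 FPKM in LKO, a log2 fold change of -0.13 ± 0.086 (adjusted p by limma = 0.849). LKO 2 was the lowest library of *Myh1* and Ctrl 3 the highest. *Myh2* had 603, 615 and 731 FPKM in Ctrl and 722, 676 and 641 FPKM in LKO, with a log2 fold change of 0.07 ± 0.089 (adjusted p by limma = 0.957). Its highest library was Ctrl 3 and its lowest Ctrl 1. *Myh1* and *Myh2* are close paralogs, and 7.59% of the 100-base windows of either transcript occurred in the other, so that reads there could be given to either gene. For *Myh4*, 3.85% of the windows occurred in another transcript. *Myh1* also overlaps the antisense transcript *Myhas*, from which its reads cannot be told apart, since the library kit does not keep the strand.

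*Myh7*, the heavy chain of slow fibres and of the heart ventricle, had 379, 336 and 351 FPKM in the Ctrl GM libraries and 411, 373 and 473 FPKM in the LKO libraries. The log2 fold change was 0.23 ± 0.096, with an unadjusted limma p of 0.045 and an adjusted p of 0.720. LKO 3 was the highest library, and Ctrl 1 at 379 FPKM was above LKO 2 at 373 FPKM, so the groups overlapped. *Myh7* shares 11.2% of its 100-base windows with the cardiac heavy chain *Myh6*, which ran from 13.0 to 18.3 FPKM in GM. It also overlaps *Mhrt* on the other strand.

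As shares of the summed FPKM of these 4 heavy chains, *Myh4* took 84.7% to 87.3% over the 6 GM libraries, *Myh1* 4.90% to 6.63%, *Myh2* 4.67% to 5.81% and *Myh7* 2.55% to 3.54%. The *Myh7* share was 2.80% ± 0.31 in Ctrl and 3.21% ± 0.39 in LKO (SD, n = 3 each). The *Myh4* share was 85.8% ± 0.94 in Ctrl and 85.9% ± 1.29 in LKO. The ranges of the genotypes overlapped for both shares.

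The slow light chains bind the neck of the myosin head. *Myl2*, the regulatory one, had 871, 757 and 571 FPKM in the Ctrl GM libraries and 872, 785 and 1016 FPKM in the LKO libraries. Its log2 fold change of 0.30 ± 0.163 was the highest of the members, with a limma adjusted p of 0.804, and its groups overlapped. *Myl3*, the essential one, had 793, 696 and 703 FPKM in Ctrl and 782, 735 and 792 FPKM in LKO, with a log2 fold change of 0.08 ± 0.070 (adjusted p by limma = 0.905). Ctrl 1 was its highest library.

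The troponins are the calcium switch of the thin filament, and the groups of all 4 overlapped in GM. *Tnnt1* had 417, 345 and 328 FPKM in the Ctrl GM libraries and 409, 380 and 450 FPKM in the LKO libraries, a log2 fold change of 0.19 ± 0.106 (adjusted p by limma = 0.815). Its fast counterpart *Tnnt3* had 21742, 21103 and 20197 FPKM in Ctrl and 18452, 21450 and 20379 FPKM in LKO, a log2 fold change of -0.07 ± 0.080 (adjusted p by limma = 0.945). *Tnnt3* overlaps *Prr33* on the other strand. *Tnni1* had 287, 242 and 205 FPKM in Ctrl and 291, 250.4 and 320 FPKM in LKO, a log2 fold change of 0.24 ± 0.138 (adjusted p by limma = 0.823). *Tnni2* had 12790, 13075 and 12331 FPKM in Ctrl and 10867, 12979 and 12289 FPKM in LKO, a log2 fold change of -0.08 ± 0.082 (adjusted p by limma = 0.911). LKO 1 was the lowest library of both fast troponins.

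All 10 members passed the filter on low values in GM, and 0 of the 10 reached a 1.5-fold change with an unadjusted p under 0.05, against 0.901% of the 10877 genes tested. By limma, 0 genes of GM reached a 1.5-fold change with an adjusted p under 0.05. Without the fold limit, 1 of the 10 members, *Myh7*, had an unadjusted p under 0.05, against 6.83% of all genes. That limma p was 0.059 without the filter on low values, 0.060 in a fit of all 24 libraries, and 0.133, 0.090, 0.074 and 0.144 without Ctrl 2, Ctrl 3, LKO 1 and LKO 3. It was 0.013 without LKO 2 and 0.040 without Ctrl 1. Without Ctrl 1 the unadjusted limma p of *Tnnt1*, *Tnni1* and *Myl2* was 0.015, 0.028 and 0.034, none of them with an adjusted p under 0.05. The log2 fold change was above 0 for 5 of 5 slow members and 2 of 5 fast members, against 40% of all genes tested. The median log2 fold change was 0.23 over the slow members, -0.07 over the fast members and -0.03 over all genes. Of all genes tested 11.6% had groups that did not overlap, and 0 of the 10 members did.

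**Figure D2:**
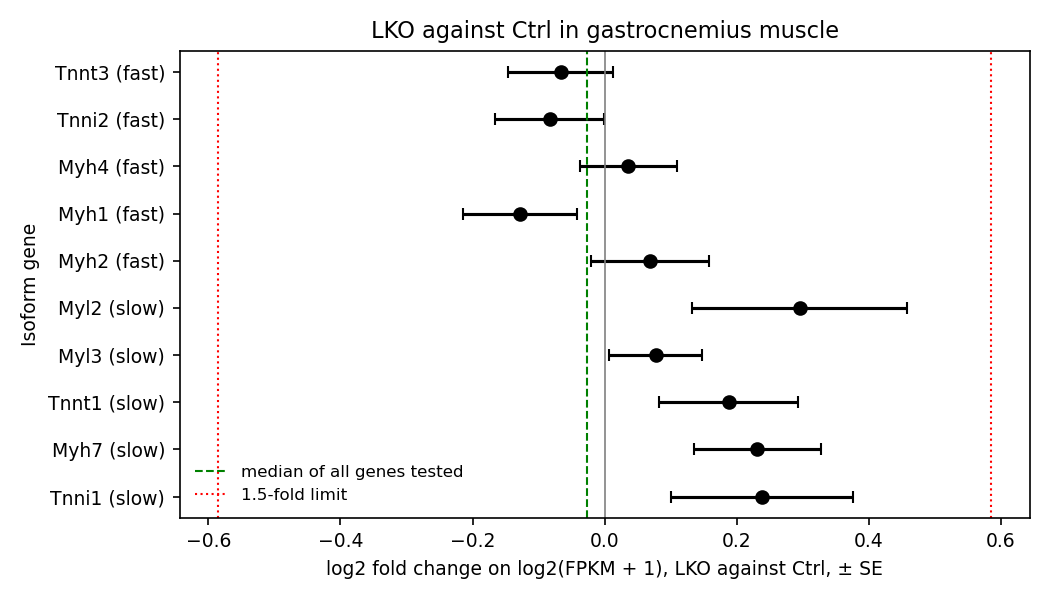
Log2 fold change of each member in GM, LKO against Ctrl on log2(FPKM + 1), with the moderated SE from limma (n = 3 against 3). The 5 slow isoforms lie between 0.08 and 0.30 and the 5 fast isoforms between -0.13 and 0.07, all inside the dotted lines of a 1.5-fold change. The dashed line is the median of all genes, -0.03. All 5 slow isoforms lie above it, and the fast isoforms lie on both sides.

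The slow members varied together from library to library. Pearson's r between pairs of slow members over the 6 GM libraries ran from 0.781 to 0.981 with a median of 0.891 over 10 pairs, and between pairs of fast members from -0.708 to 0.959 with a median of -0.141. These are descriptions over libraries that share depth and dissection. LKO 3 was the highest library for 4 of the 5 slow members and among the top 2 for all 5. Ctrl 3 was the lowest for 3 of them and Ctrl 2 for the other 2. The mean log2 level of the slow members minus that of the fast members was -3.07, -3.33 and -3.49 in the Ctrl GM libraries and -3.02, -3.22 and -2.93 in the LKO libraries. The means differed by 0.24 and the groups overlapped, since Ctrl 1 lay above LKO 2. Single libraries moved these values, and the log2 fold change of *Myl2* was 0.13 without Ctrl 3 and 0.43 without Ctrl 1, that of *Tnni1* 0.12 without Ctrl 3 and 0.36 without Ctrl 1. That of *Tnnt1* was 0.12 without Ctrl 3 or LKO 3 and 0.29 without Ctrl 1, and that of *Myh7* 0.14 without LKO 3.

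Ratios within a library do not depend on its scaling. The log2 ratio of *Myh2* to *Myh4* differed between LKO and Ctrl by 0.03 in GM (exact permutation p = 0.8), that of *Myh7* to *Myh4* by 0.20 (exact permutation p = 0.2) and that of *Tnni1* to *Tnni2* by 0.32 (exact permutation p = 0.2). With 3 against 3 libraries the smallest two-sided p is 0.1, so that no such test could reach 0.05. Adjusted over the 9 ratio comparisons made, the exact test gave 0.9, 0.538 and 0.538.

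Other genes of the slow and fast programmes were taken from lists. Of 12 other slow genes, all tested, 0 passed the 1.5-fold criterion, against 0.901% of all genes tested in GM. A log2 fold change above 0 was found for 11 of the 12, against 40% of all genes, with a median of 0.23. The highest were 0.50 for *Csrp3*, a Z-disc LIM protein, 0.36 for *Mb*, the oxygen-binding myoglobin, and 0.32 for the light chain *Myl6b*, with overlapping groups. An unadjusted limma p under 0.05 was met by 3 of the 12, against 6.83% of all genes tested. One was *Actn2*, a Z-disc actinin not confined to slow fibres, with a log2 fold change of 0.16. The others were *Atp2a2*, the slow calcium pump, with 0.22, and *Myoz2*, a Z-disc protein, with 0.23. Of 11 other fast genes, all tested, 0 passed, 4 had a log2 fold change above 0 and the median was -0.01. The values farthest from 0 were 0.12 for the fast myosin-binding protein *Mybpc2*, 0.10 for the fast calcium pump *Atp2a1* and 0.07 for the fast actinin *Actn3*. Of 10 developmental and cardiac isoforms 6 were tested and 0 passed, with 0.35 for the embryonic heavy chain *Myh3* and 0.82 for the cardiac actin *Actc1*. Of 12 genes shared by all sarcomeres, 1 passed the unadjusted criterion. This was *Trim63*, a ubiquitin ligase of muscle protein breakdown, with a log2 fold change of 0.72 ± 0.256 (limma unadjusted p = 0.026, adjusted p = 0.654). It had 139, 132 and 158 FPKM in Ctrl and 149, 292 and 301 FPKM in LKO, with overlapping groups. It did not pass the unadjusted criterion in limma fits without Ctrl 1, Ctrl 2, LKO 2 or LKO 3, nor in the fit of all libraries.

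Among 20 regulators of fibre type and muscle identity, 19 were tested and 1 passed the unadjusted criterion, against 0.901% of all genes tested in GM. *Myod1*, a myogenic transcription factor that is higher in fast muscle, had 16.1, 13.6 and 16.2 FPKM in Ctrl and 10.7, 6.30 and 4.28 FPKM in LKO. All LKO libraries lay below all Ctrl libraries, with a log2 fold change of -1.08 ± 0.262 (limma unadjusted p = 0.004, adjusted p = 0.506). Without reaching 1.5-fold, *Six4* and *Tbx15*, regulators of the fast programme, had log2 fold changes of -0.35 and -0.25. *Sox6*, a repressor of slow genes, had 0.16. Without the fold limit, an unadjusted limma p under 0.05 was met by 1 regulator higher in LKO and 4 lower, against 6.83% of all genes. The median of the regulators was -0.07. Of 7 genes linked to denervation 4 were tested, and *Gadd45a* had a log2 fold change of 0.60 ± 0.166 (limma unadjusted p = 0.008, adjusted p = 0.558). It fell under 1.5-fold without Ctrl 3, LKO 2 or LKO 3, at 0.43, 0.56 and 0.53, and its limma p was 0.053 in the fit of all libraries.

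Markers of other cells in the muscle were counted beside these values. Of 8 fibroblast and tendon genes 7 were tested, and all 7 had a log2 fold change above 0, against 40% of all genes tested in GM. The median of the 7 was 0.39. The summed level of the list was 309 to 362 FPKM in Ctrl and 369 to 469 FPKM in LKO, without overlap. Of the 7 genes 0 passed the 1.5-fold criterion, against 0.901% of all genes. An unadjusted limma p under 0.05 was met by 4 of the 7, against 6.83% of all genes. The log2 fold changes of these 4 were 0.27 for *Dcn*, 0.44 for *Pdgfra*, 0.56 for *Thbs4* and 0.54 for *Tnmd*. Their groups did not overlap, as in 11.6% of all genes. The 7 adipocyte genes all had a log2 fold change below 0, with a median of -0.40 and sums of 296 to 873 FPKM in Ctrl and 309 to 1022 FPKM in LKO. Of 5 blood genes 3 were tested and *Hba-a2* alone passed, with a log2 fold change of 4.35. Its near-identical copy *Hba-a1* had 66.3, 76.4 and 2.06 FPKM in Ctrl and 4.19, 1.98 and 13.7 FPKM in LKO, a log2 fold change of -2.04, and how reads were divided between the copies is unknown. *Hba-a2* had 0.149, 0.178 and 91.4 FPKM in Ctrl and 118, 99.5 and 86.6 FPKM in LKO, so that the groups overlapped and the fold rests on Ctrl 1 and Ctrl 2. It did not pass without any one of Ctrl 1, Ctrl 2, LKO 1, LKO 2 or LKO 3 (limma p from 0.053 to 0.098), and without Ctrl 3 it passed the adjusted criterion (limma adjusted p = 2.5e-05). None of the satellite cell (2 of 4 tested), endothelial (5 of 5), immune (3 of 6), brown adipocyte (2 of 5) and Schwann cell (5 of 5) genes passed. *Cox8b* of the brown adipocyte list ran from 629 to 737 FPKM in GM and from 119 to 410 FPKM in iWAT. In GM it cannot be read as a marker of brown adipocytes. The part of these markers in the values of the slow members was not tested.

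In iWAT, a tissue without skeletal muscle fibres of its own, the fast isoforms were present at very unequal levels. *Myh4* had 60.4, 8.85 and 6.83 FPKM in the Ctrl libraries and 8.29, 93.9 and 3.76 FPKM in the LKO libraries. *Tnnt3* had 101, 15.0 and 10.9 FPKM in Ctrl and 13.1, 160.1 and 6.38 FPKM in LKO. *Tnni2* had 64.8, 9.79 and 8.01 FPKM in Ctrl and 8.496, 97.1 and 5.48 FPKM in LKO. One library of each genotype, Ctrl 1 and LKO 2, stood several times above the others. *Myh1* had 2.89, 0.399 and 0.618 FPKM in Ctrl and 1.02, 4.05 and 0.398 FPKM in LKO. *Myh2* had 1.98, 0.565 and 0.300 FPKM in Ctrl and 0.367, 1.62 and 0.133 FPKM in LKO, with the same pair of libraries on top. As a percent of the mean GM level, the median over the fast members was 0.491% in Ctrl 1 and 0.779% in LKO 2. In the other 4 libraries it was 0.0790% in Ctrl 2, 0.0617% in Ctrl 3, 0.0686% in LKO 1 and 0.0340% in LKO 3.

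The fast members did not separate the genotypes in iWAT. Only 4 of the 10 members passed the filter on low values there, *Myh1*, *Myh4*, *Tnni2* and *Tnnt3*, and 0 of these passed the unadjusted criterion, against 3.25% of the 12288 genes tested. No gene of iWAT passed the adjusted criterion, and the groups overlapped for all 10 members, against 20.8% of all genes tested whose groups did not. The log2 fold changes were 0.23 ± 0.563 for *Myh1*, -0.06 ± 1.251 for *Myh4*, -0.03 ± 1.188 for *Tnni2* and -0.07 ± 1.293 for *Tnnt3* (SE; limma adjusted p of 0.878, 0.990, 0.996 and 0.989). Single libraries set these signs. Without Ctrl 1 the value of *Myh4* was 0.88, without LKO 2 it was -1.34, and without both, an alternative chosen after seeing the data, it was -0.40 (adjusted p by limma = 0.682). *Myh1* was -0.30 without LKO 2 and 0.16 without both libraries.

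The slow isoforms did not follow the fast ones in iWAT. *Myh7* was listed at 0.000125, 0 and 0 FPKM in Ctrl and at 0, 0.042 and 0.0486 FPKM in LKO. *Tnni1* was listed at 0.0234, 0 and 0.152 FPKM in Ctrl and at 0.217, 0 and 0.0568 FPKM in LKO. The libraries richest in *Myh4* were thus not the richest in these slow isoforms. *Myl2* was listed at 0, 0.146 and 0 FPKM in Ctrl and at 0.0996, 0.184 and 0.307 FPKM in LKO. *Myl3* was listed at 0.289, 0.108 and 0 FPKM in Ctrl and at 0.548, 0.411 and 0.263 FPKM in LKO. *Tnnt1* was nearly even, with 0.494, 0.493 and 0.367 FPKM in Ctrl and 0.332, 0.465 and 0.339 FPKM in LKO. The summed level of the 5 slow isoforms ran from 0.519 to 0.806 FPKM in Ctrl and from 1.02 to 1.195 FPKM in LKO, without overlap, although each isoform overlapped and none passed the filter on low values. No test was made of this sum.

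Each slow isoform was set against the level it would have at the percent of its GM mean that the fast members showed in the same library. For LKO 2 that level is 3.02 FPKM for *Myh7*, where 0.042 was measured, 2.07 FPKM for *Tnni1*, where 0 was listed, and 6.33 FPKM for *Myl2*, where 0.184 was measured. It is 5.84 FPKM for *Myl3*, where 0.411 was measured. For Ctrl 1 the levels are 1.90 FPKM for *Myh7*, 1.305 FPKM for *Tnni1*, 3.99 FPKM for *Myl2* and 3.68 FPKM for *Myl3*, against measured values of 0.000125, 0.0234, 0 and 0.289 FPKM. *Tnnt1* was at 0.259 of that level in Ctrl 1 and at 0.154 in LKO 2. *Myh2*, the slowest of the fast heavy chains, was at 0.608 and 0.313 of it. Of the genes that all fibres share, only *Acta1* and *Ckm* were set against it, with ratios of 1.32 and 1.25 for *Acta1* and of 1.05 and 1.09 for *Ckm*. In these libraries the muscle signal was poorer in slow isoforms than GM. Over all 6 iWAT libraries the ratio ran from 0 to 0.369 for *Myh7*, from 0 to 1.19 for *Tnni1*, from 0 to 1.11 for *Myl2* and from 0 to 1.06 for *Myl3*. For *Tnnt1* it ran from 0.154 to 2.57, with a median of 1.39, and it was above 1 in the 4 libraries poorer in fast isoforms.

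**Figure D3:**
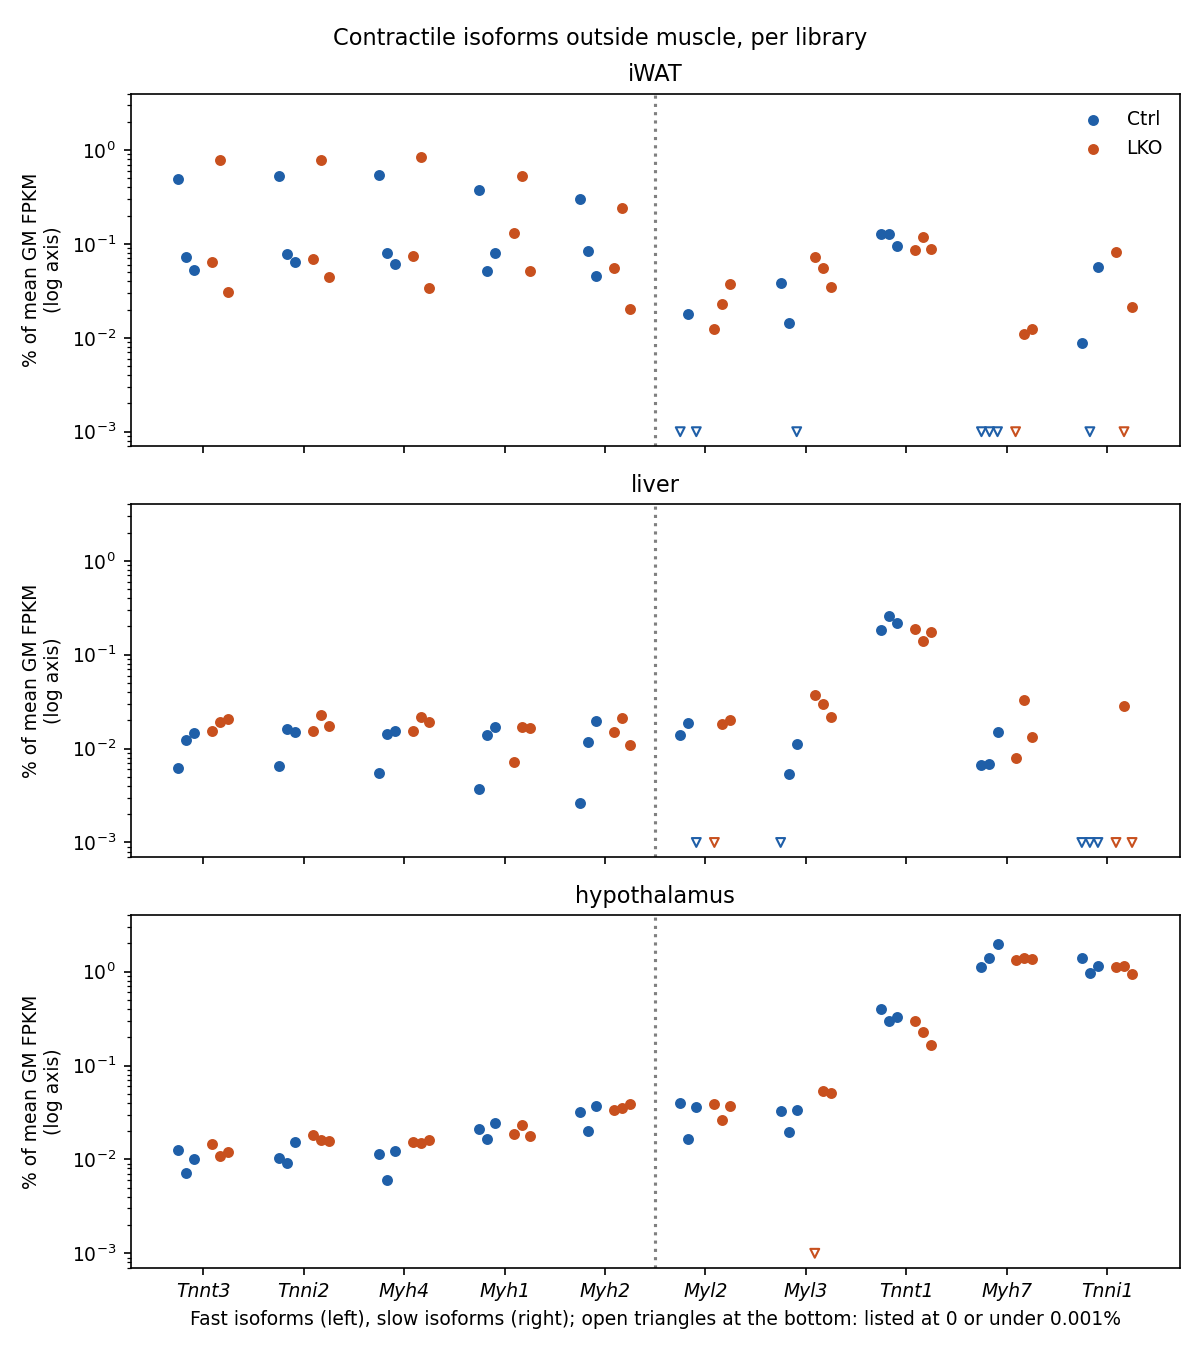
Level of each member in the 6 libraries of iWAT, liver and hypothalamus as a percent of its mean FPKM in GM (log axis), blue for Ctrl and orange for LKO; open triangles at the bottom are libraries listed at 0 or under 0.001%. In iWAT the fast isoforms of Ctrl 1 and LKO 2 reach 0.244% to 0.848% while *Myh7*, *Myl2*, *Myl3* and *Tnni1* stay under 0.1%, and in hypothalamus *Myh7* and *Tnni1* lie between 0.940% and 1.95%.

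The log2 ratio of *Myh7* to *Myh4*, with 0.1 FPKM added to both, was -7.05 ± 1.86 in iWAT and -4.85 ± 0.19 in GM (SD, n = 6 each), a difference of -2.205 (exact permutation p = 0.011, adjusted over the 9 ratio comparisons 0.097). For *Myh2* to *Myh4* the difference was -0.39 (exact permutation p = 0.297, adjusted 0.538), and for *Tnni1* to *Tnni2* it was -1.20 (exact permutation p = 0.299, adjusted 0.538). These values rest on the added constant, because the slow genes are near 0 in iWAT. With 0.01 FPKM added the difference of *Myh7* to *Myh4* was -4.87 (adjusted exact p = 0.0195) and that of *Myh2* to *Myh4* -0.67 (adjusted exact p = 0.0487). With 1 FPKM added the 3 differences changed sign, to 0.82, 0.79 and 1.45. Without iWAT LKO 3 the difference of *Myh7* to *Myh4* was -2.67 (adjusted exact p = 0.0195). Within iWAT, LKO against Ctrl, the exact permutation p was 0.9 for *Myh7* to *Myh4*, 0.6 for *Myh2* to *Myh4* and 0.9 for *Tnni1* to *Tnni2*.

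The effect of genotype on the fast members was compared between GM and iWAT in 1 limma fit of all libraries. The difference, GM minus iWAT, was -0.36 ± 0.465 for *Myh1*, 0.09 ± 1.039 for *Myh4*, -0.06 ± 0.988 for *Tnni2* and 0.00 ± 1.075 for *Tnnt3*, with limma adjusted p of 0.899, 0.990, 0.993 and 1.000. None of the 4 passed the unadjusted criterion, against 3.19% of the 10250 genes tested in both tissues.

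The other muscle genes of iWAT showed no call either. Of the other fast genes 10 of 11 were tested, of the other slow genes 4 of 12 and of the shared sarcomere genes 7 of 12, and 0 of each passed the unadjusted criterion. The summed level of the shared sarcomere genes ran from 50.1 to 345 FPKM in Ctrl and from 46.2 to 537 FPKM in LKO. Genes of other lists that passed it in iWAT included *Elovl3* (1.26) and *Cox8b* (0.82) of brown adipocytes, *Cdh5* (0.77) and *Kdr* (0.81) of endothelium, and *Alas2* (1.07), *Hba-a1* (1.297) and *Hba-a2* (0.97) of blood. *Lep* (-1.29) of adipocytes also passed, each value being a log2 fold change. *Elovl3* had 0.508, 0.548 and 0 FPKM in Ctrl and 2.24, 1.04 and 3.91 FPKM in LKO. It passed the filter on low values only through the LKO libraries, which favours a call. *Cox8b* did not pass with the replicate block or without Ctrl 2, Ctrl 3, LKO 2 or LKO 3, *Hba-a1* without Ctrl 1, Ctrl 3 or LKO 3, *Hba-a2* without Ctrl 1 or any 1 LKO library, and the latter 2 not in the fit of all libraries. Without both muscle-rich libraries *Hba-a1*, *Hba-a2* and *Lep* did not pass. Their part in the values of the members was not tested.

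**Figure D4:**
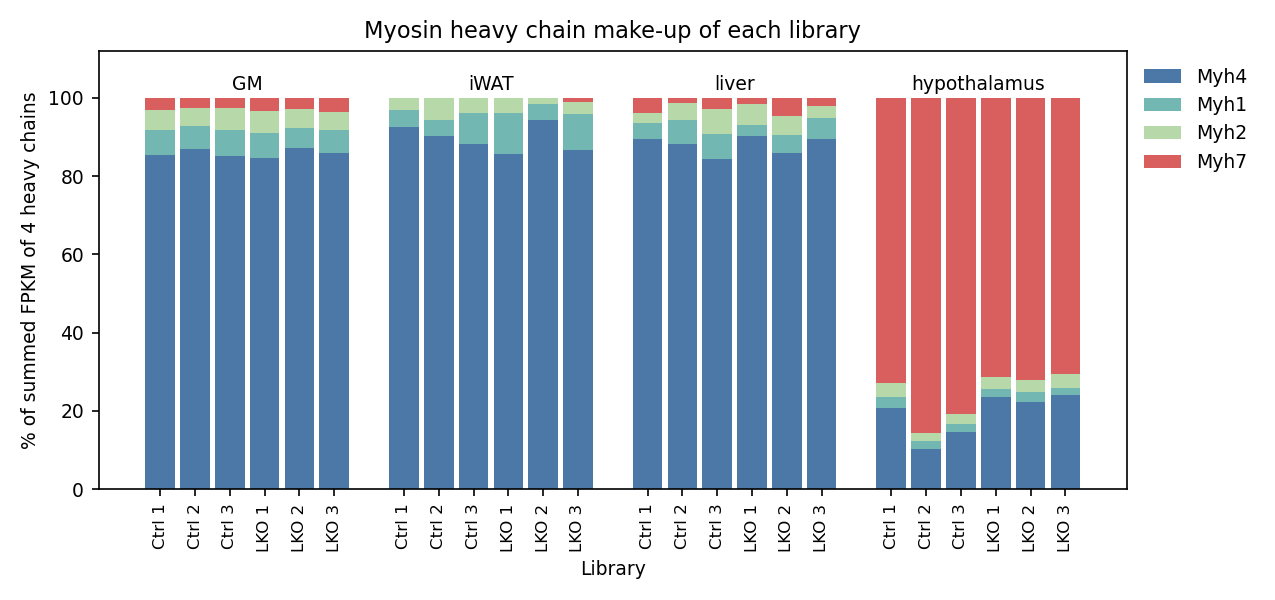
Share of each of 4 myosin heavy chains in their summed FPKM, one bar for each of the 24 libraries grouped by tissue. *Myh4* takes 84.7% to 87.3% in GM, 85.7% to 94.3% in iWAT and 84.4% to 90.2% in liver, and *Myh7* takes 70.6% to 85.5% in hypothalamus.

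Liver held the muscle isoforms at trace level. *Myh4* had 0.616, 1.59 and 1.71 FPKM in Ctrl and 1.72, 2.42 and 2.11 FPKM in LKO, which is 0.00556% to 0.0218% of its GM mean. *Myh7* lay close to the proportion it has in GM, with a median ratio of 0.872 over the 6 livers and 1.47% to 4.57% of the heavy chain sum. *Tnnt1* alone was well above that proportion, at 0.544 to 1.00 FPKM and a median ratio of 13.2, and *Tnni1* was listed at 0 in 5 of the 6 livers. The log2 fold changes of the 3 members that passed the filter were 0.45 ± 0.211 for *Myh4*, 0.39 ± 0.214 for *Tnni2* and 0.57 ± 0.220 for *Tnnt3*, with limma adjusted p of 0.113, 0.161 and 0.068. *Tnnt3* had an unadjusted limma p of 0.034, and an unadjusted p under 0.05 was met by 55.9% of all genes tested. Its change was under 1.5-fold, and 0 of the 3 passed the unadjusted criterion, against 28.9% of all genes tested in liver. Of these 3 the groups of *Myh4* and *Tnnt3* did not overlap, against 61.1% of all genes tested. A log2 fold change above 0, as in 3 of the 3, was found for 81.5% of all genes tested in liver. Ctrl 1, the deepest liver library at 8.09 gigabases, was the lowest of *Myh4*, and the part of depth in these values was not tested.

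In hypothalamus the slow genes *Myh7* and *Tnni1* had the highest medians of the members. *Myh7* had 4.37, 5.45 and 7.55 FPKM in Ctrl and 5.15, 5.34 and 5.23 FPKM in LKO, which made 70.6% to 85.5% of the summed heavy chains. *Tnni1* had 3.73, 2.57 and 3.03 FPKM in Ctrl and 2.97, 3.04 and 2.4997 FPKM in LKO. Against the level at the same percent of GM as the fast members, *Myh7* was 73.2 to 153 times and *Tnni1* 58.4 to 110.3 times as high. *Tnnt1* was 10.2 to 32.6 times as high, while *Myl2* and *Myl3*, at no more than 0.3204 and 0.403 FPKM, had median ratios of 2.198 and 2.39. *Myh4* ran from 0.660 to 1.78 FPKM, and its lowest library was Ctrl 2, the deepest at 7.59 gigabases.

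Between genotypes in hypothalamus 6 members passed the filter, and 0 of them reached the unadjusted criterion with its 1.5-fold limit, against 0.333% of all genes tested there. Without the fold limit 3 of the 6 had an unadjusted p under 0.05, against 3.72% of all genes. *Myh4* had 1.25, 0.660 and 1.36 FPKM in Ctrl and 1.70, 1.66 and 1.78 FPKM in LKO, a log2 fold change of 0.39 ± 0.139 (limma unadjusted p = 0.025, adjusted p = 0.999). *Tnni2* had a log2 fold change of 0.35 ± 0.125 (limma unadjusted p = 0.027, adjusted p = 0.999). *Tnnt1* had 1.54, 1.16 and 1.26 FPKM in Ctrl and 1.15, 0.873 and 0.638 FPKM in LKO, a log2 fold change of -0.30 ± 0.122 (limma unadjusted p = 0.041, adjusted p = 0.999). The groups of these 3 genes did not overlap, against 9.7% of all genes tested. *Ckm*, a gene of all muscle fibres, had a log2 fold change of 0.43 in the same libraries, also without overlap. *Acta1*, likewise shared by all fibres, had 0.25 there, with overlapping groups (limma unadjusted p = 0.089). The other 3 members tested were at 0.23 for *Tnnt3*, -0.10 for *Myh7* and -0.09 for *Tnni1*.

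The genes whose pattern over libraries was most like that of the members are given as a description, by Pearson's r on log2(FPKM + 1) over 6 libraries that share depth and tissue. To the mean of the slow members in GM the closest of 6327 genes were *Gle1* (0.989), *Ddb1* (0.984), *Mrps18b* (0.976), *Ctsl* (0.975) and *Ip6k1* (0.973). To the mean of the fast members in GM they were *Chchd10* (0.989), *Slc16a3* (0.981), *Atp5a1* (0.976), *Fam213b* (0.969) and *Rsph3a* (0.968). In iWAT the closest to the fast members, of 8502 genes, were *Tnnc2* (0.999), *Ckm* (0.998), *Atp2a1* (0.998), *Casq1* (0.997) and *Mybpc2* (0.997), all genes of the fast fibre or of every fibre. To the slow members in iWAT they were *Nrd1* (0.983), *Thrb* (0.982), *Slc25a17* (0.980), *Lmcd1* (0.973) and *Rabgap1* (0.967), none of which is in the muscle lists.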

How the data were processed

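Bulk RNA-seq libraries of 4 tissues, 3 Ctrl and 3 LKO each, were used, and none was left out. Groups follow the sample labels. The authors deposited a joined table of FPKM values and, for each library, tables with coverage, FPKM and TPM. The deposited coverage of each gene was not scaled for depth, the deposited FPKM were scaled by the authors to the fragments of the library, and the deposited TPM to the same sum in each library. The submitters' processing notes name FastQC 0.11.5, Trimmomatic 0.32, HISAT2 2.0.5, Bowtie2 2.2.6, STAR 2.5.2b and StringTie 1.3.3b, without roles, and mm10. Depth, worked out from coverage divided by FPKM, was 4.45 to 8.09 gigabases (median 5.19). As values are not counts, no counting interval was given.

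Genes that reached 1 FPKM in 3 or more of the 6 libraries of a tissue were fitted on log2(FPKM + 1), tissue by tissue, with limma 3.58.1 in R 4.3.3 (eBayes with trend). The constant understates the change of low genes. The unadjusted criterion asked for a 1.5-fold change and p under 0.05, the adjusted one for the same fold and a Benjamini-Hochberg p under 0.05 over all genes tested. Ratios were compared by two-sided exact permutation. The fit was also run on simulated data, and the outcome is not reported here. Members and lists were chosen with earlier results of these data known. All members are named. Of other lists, genes past the unadjusted criterion are named, and otherwise up to 3 of the largest change or, chosen after their values were seen, those with p under 0.05. For likeness, the 5 genes of highest r with a mean of at least 5 FPKM are named. Alternatives were other constants, filters, scalings, TPM, a fit of all libraries, a replicate block, a 2-fold limit and leaving out each library. Some genes that these rules would name are not reported here.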

Additional observations from a re-analysis of the deposited data

How the results depend on the processing

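No member passed either criterion in GM or iWAT under any alternative run. Over all genes of GM the 98 past the unadjusted criterion became 178 with 0.1 FPKM added, 61 with a mean of at least 5 FPKM, 25 with a 2-fold limit and 81 to 210 on leaving out 1 library. The 0 past the adjusted criterion became 22 in a fit of all 24 libraries and 0 to 9 on leaving out 1 library. In iWAT the 399 became 70 with a 2-fold limit and 312 to 619 on leaving out 1 library, and the 0 became 15 after quantile normalization, 317 in the fit of all libraries and 0 to 110 on leaving out 1 library. Between tissues, the difference of *Myh7* to *Myh4* was -4.87 with 0.01 FPKM added and 0.82 with 1 FPKM, that of *Myh2* to *Myh4* -0.67 and 0.79, and that of *Tnni1* to *Tnni2* -2.999 and 1.45. Leaving out 1 library gave ranges of the difference in log2 ratio. That of *Myh2* to *Myh4* was -0.057 to 0.11 in GM, -0.73 to 0.13 in iWAT and -0.53 to -0.13 between tissues. That of *Myh7* to *Myh4* was 0.12 to 0.31 in GM, -0.60 to 1.73 in iWAT and -2.67 to -1.74 between tissues. That of *Tnni1* to *Tnni2* was 0.22 to 0.47 in GM, -0.80 to 1.93 in iWAT and -1.60 to -0.56 between tissues. With 1 library left out, log2 fold changes ran from -0.0053 to 0.081 for *Myh4* and -0.11 to 0.11 for *Gadd45gip1* in GM, from 0.14 to 0.31 for *Myh7*, 0.12 to 0.29 for *Tnnt1*, 0.12 to 0.36 for *Tnni1* and 0.13 to 0.43 for *Myl2*, and in iWAT from -0.30 to 0.69 for *Myh1*, -1.34 to 0.88 for *Myh4*, -1.24 to 0.89 for *Tnni2* and -1.40 to 0.89 for *Tnnt3*. For the other fast members in GM it ran from -0.18 to -0.047 for *Myh1* and from 0.018 to 0.16 for *Myh2*. It ran from -0.12 to -0.0067 for *Tnnt3* and from -0.14 to -0.011 for *Tnni2*. GM minus iWAT the log2 fold change ran from -0.82 to 0.17 for *Myh1*, -0.84 to 1.37 for *Myh4*, -0.97 to 1.16 for *Tnni2* and -0.96 to 1.33 for *Tnnt3*. Without both muscle-rich iWAT libraries it was 0.25 for *Tnni2*, and with TPM -0.0017 for *Tnnt3*. The slow minus fast level in GM differed between genotypes by 0.14 to 0.35 with 1 library left out. *Myod1* passed the adjusted criterion only in the limma fit of all libraries (adjusted p = 0.00409) and *Trim63* only without LKO 1 (adjusted p by limma = 0.0264), and *Cox8b* in iWAT lost the unadjusted criterion with the replicate block (p by limma = 0.070). The causes were not tested.

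Whether equal replicate numbers mark a shared mouse is unknown, and not every pair varied together: the correlations of their deviations were 0.354, 0.050 and 0.163 in GM and 0.302, -0.124 and 0.205 in iWAT. With the replicate block 145 genes of GM and 433 of iWAT passed the unadjusted criterion and 0 the adjusted one, and *Myh7* in GM had an adjusted p of 0.574 by limma. The read counts behind values under 0.1 FPKM in iWAT are unknown, which limits what can be said of the slow members there.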
